A study of Mus musculus with 67 samples.

Results

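F-box genes were defined here by their symbols: every row of the expression table whose symbol starts with Fbxl, Fbxo or Fbxw followed by a digit, pseudogene symbols with -ps left out. This gave 79 of 26414 genes, of which 19 were Fbxl, 36 Fbxo and 24 Fbxw symbols. They were followed over 5 stages, 2-cell to blastocyst, in mouse embryos of a control and a light group. All embryos came from C57BL/6 mice by in vitro fertilisation, with oocytes of 6-week-old females and sperm of 10-week-old males. The light group was exposed as 2-cell embryos to 5000 lx for 6 h and then cultured in the dark, and the control group stayed in the dark. Each of the 67 libraries was made by SMART-seq2, a full-length method for single cells, and the study describes cells picked from dissociated embryos. The control group held 7 libraries of the 2-cell stage, 6 of the 4-cell stage, 4 of the 8-cell stage, 13 of the morula and 3 of the blastocyst. The light group held 6, 8, 8, 6 and 6 libraries of these stages.

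The F-box is a short protein motif that binds Skp1. Through Skp1 and the scaffold Cul1 it joins a substrate to a ubiquitin ligase of the SCF type, so the F-box protein sets which protein is marked for degradation. Fbxl proteins also carry leucine-rich repeats, Fbxw proteins WD40 repeats, and Fbxo proteins other domains or none. In mouse a group of related Fbxw genes lies side by side and is known for expression in the oocyte, whose stored transcripts are cleared around the time that the embryo's own genome is switched on.

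Of the 79 genes, 64 had a mean deposited value of at least 10 in one of the 10 groups, and 25 had one of at least 100. The deposited values are reads over a factor for the size of each library, with no division by gene length. Of the rows, 77 were protein coding and 2 were not: Fbxl12os, annotated as an antisense RNA, and Fbxw23, a transcribed pseudogene. Fbxo18 is the older symbol of Fbh1. Libraries held between 836011 and 8551674 reads, and 54.0% to 89.3% of these fell on CT010467.1 and Gm42418. The ratio of Gm42418 to CT010467.1 differed between control and light without overlap at the 2-cell stage (2.34 to 4.03 against 1.58 to 1.77), the 8-cell stage (2.01 to 2.34 against 1.52 to 1.71) and the morula (2.34 to 4.14 against 1.49 to 1.67), and its part in the results was not tested. Of the 13 control morula libraries, 12 had no read on 4 Y-linked genes and the remaining one had 1 read. Light morula libraries had 0 to 67 such reads. At the blastocyst control libraries had 0 to 1 and light libraries 45 to 139, without overlap. At the 8-cell stage control had 0 to 1 and light 0 to 141. The 2-cell ranges (0 to 64 against 0 to 113) and 4-cell ranges (0 to 309 against 36 to 358) overlapped. The part of embryo sex in the differences between light and control was not tested. Cells of 1 embryo share their sex, so p-values that treat libraries as independent measure the spread between these libraries only. In single cells, less RNA of one gene and less RNA recovered from the cell cannot be told apart.

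The oocyte Fbxw cluster, a run of neighbouring Fbxw genes on chromosome 9, held 15 of the 79 genes. In GENCODE M21 (GRCm38) they covered 651 kb, from base 109139447 to base 109790670, all on the minus strand. Gaps between neighbours ran from 12081 to 38740 bases, and none of the 9 other annotated genes in the span was protein coding. The transcripts of the cluster resembled each other: over the 105 pairs, identity lay between 79.4% and 99.2%, with a median of 84.4%. Even so, only Fbxw14 and Fbxw28 shared stretches as long as a read of 150 bases, which made up 24.6% and 26.3% of their windows. Reads of these stretches may have been split between Fbxw14 and Fbxw28 or left out of both, which is not known. The separate values of the 2 genes are therefore uncertain. The plot of the cluster map shows how the genes were spaced and how unequal their levels were.

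**Figure D1:**
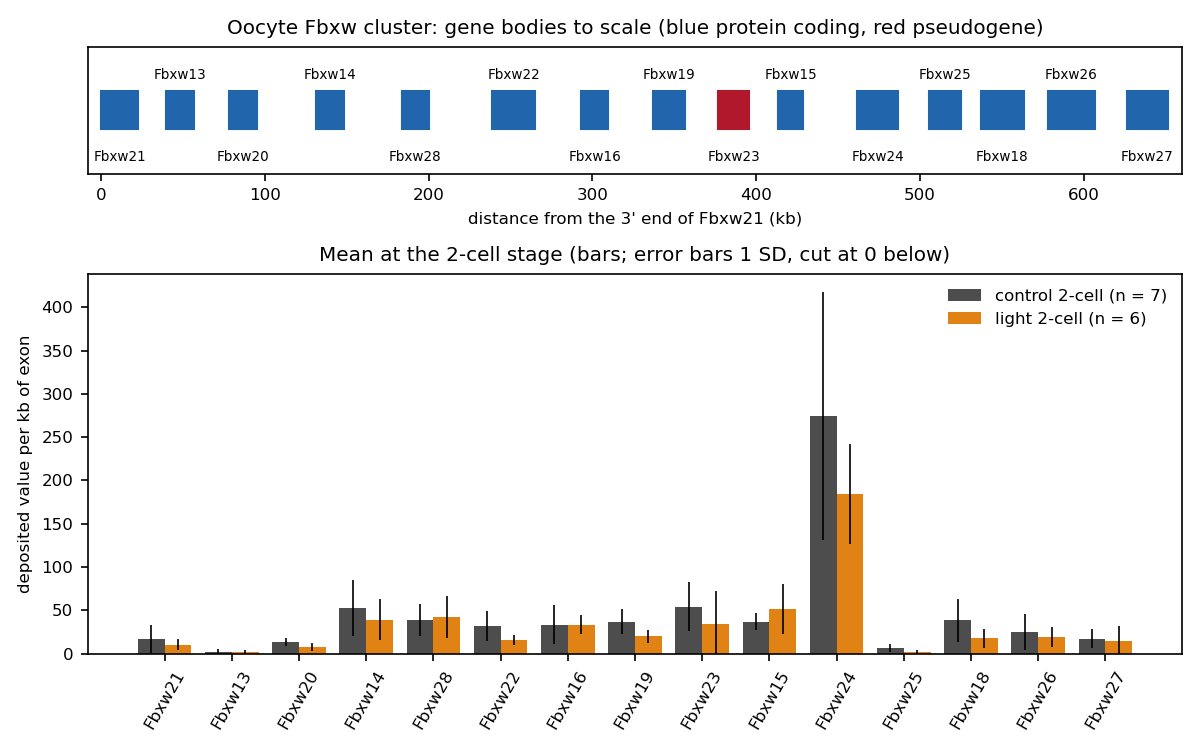
The upper panel draws the 15 genes of the oocyte Fbxw cluster to scale by distance in kb from the 3′ end of Fbxw21, with the pseudogene Fbxw23 in red. The lower panel gives the mean deposited value per kb of exon at the 2-cell stage for control (n = 7) and light (n = 6), with error bars of 1 SD, and Fbxw24 stands above the other genes at 275 and 184.

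RefSeq promoter sequences on GRCm38.p6 were given for 12 of the 15 cluster genes. Leaving out Fbxw23, whose listed start lay 8331 bases from that of GENCODE, the promoters of the other 11 genes were 84.7% to 97.3% identical over 55 pairs, with a median of 91.0%. The bases just before the start are shown for 6 genes because the same stretch returns in each, 5′ to 3′, with the letters TTTAAA in capitals. Fbxw24 had the highest level of the cluster, Fbxw14 and Fbxw28 are the nearly identical pair, Fbxw16 is the member lower in light at the 8-cell stage beside Fbxw24, and Fbxw18 and Fbxw20 show the shifted and the missing motif.
Fbxw24, chr9:109626060-109626139, minus strand: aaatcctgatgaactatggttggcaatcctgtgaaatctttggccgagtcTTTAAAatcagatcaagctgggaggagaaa
Fbxw14, chr9:109287677-109287756, minus strand: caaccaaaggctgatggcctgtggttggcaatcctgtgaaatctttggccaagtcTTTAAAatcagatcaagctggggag
Fbxw28, chr9:109339660-109339739, minus strand: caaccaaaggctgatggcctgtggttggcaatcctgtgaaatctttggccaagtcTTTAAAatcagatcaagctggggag
Fbxw16, chr9:109449141-109449220, minus strand: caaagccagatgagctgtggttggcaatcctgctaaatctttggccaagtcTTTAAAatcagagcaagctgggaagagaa
Fbxw18, chr9:109702701-109702780, minus strand: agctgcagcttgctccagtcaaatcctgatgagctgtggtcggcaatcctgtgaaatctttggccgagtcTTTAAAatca
Fbxw20, chr9:109234755-109234834, minus strand: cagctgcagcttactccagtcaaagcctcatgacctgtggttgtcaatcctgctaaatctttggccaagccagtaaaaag
The 80 bases of Fbxw14 and Fbxw28 were the same letters. TTTAAA, which reads alike on both strands, stood within 80 bases before the start in 10 of the 12 cluster promoters, or 83.3%. It was found there in 1 of 46 promoters of the other F-box genes and in 3.61% of all 27025 promoters. Its first base lay 25 to 30 bases before the start in 8 of these 10 genes, 10 bases before it in Fbxw18 and 54 in Fbxw19. On either strand, TATAAA (5.09% of all promoters) and TAATTG (1.95%) were found in none of the 12 windows, and CANNTG in 2 of the 12 against 27.9% of all promoters. Over 250 bases before the start CANNTG was in 12 of 12 against 66.0% of all promoters, and TTTAAA in 10 of 12 against 12.1%. These matches describe letters in the windows and not the use of a site.

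In the control 2-cell embryos the cluster was abundant, and it fell at the next stage. Its summed value had a lowest, median and highest library of 746, 1117 and 1986 in the control 2-cell group and 47.9, 104 and 163 in the control 4-cell group. In the light group the sums were 512, 739 and 1391 in 2-cell and 79.1, 110 and 183 in 4-cell libraries. The 2-cell and 4-cell libraries did not overlap in either group. The mean sum at the 4-cell stage was 8.64% of that at the 2-cell stage in control and 13.4% in light. In 8-cell libraries the order was turned, with 10.9% in control and 4.42% in light, and in the morula it was 1.59% and 1.91%. These are shares of the deposited values and depend on the scaling. Cluster reads were also scaled to the reads outside CT010467.1 and Gm42418 (cpm). The control medians were then 898, 93.8, 190 and 25.2 from the 2-cell stage to the morula. The light medians were 542, 116, 44.3 and 27.3. Shares of the 2-cell level were larger on this scale, with the same order of the groups at each stage. At the blastocyst the sums were 5.78, 6.26 and 10.5 in the 3 control libraries and 2.56 to 21.0 in the 6 light libraries.

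Per kb of exon Fbxw24 was the highest of all 79 F-box genes in both 2-cell groups, with means of 275 in control and 184 in light. Its values ran from 252 over a median of 369 to 864 in control 2-cell libraries and from 149 over 278 to 389 in light. In 4-cell libraries they ran from 7.22 over 23.4 to 93.7 in control and from 19.8 over 26.4 to 76.4 in light. No 4-cell library reached the lowest 2-cell library of its group. Fbxw24 fell by 3.76 ± 0.50 (SE) on the log2 scale in control (adjusted p = 3.55e-06) and by 3.07 ± 0.36 in light (adjusted p = 1.17e-07). These tests are those of limma on log2 of the value plus 1, with Benjamini-Hochberg adjustment over all genes tested, and a gene was called where the adjusted p was under 0.05 and the change was 2-fold or more. On this scale the change of a low gene is understated.

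From 2-cell to 4-cell embryos 14 of the 15 cluster genes were called lower in control and 13 of 15 in light, and none was called higher. The genes below the threshold were Fbxw13 in both groups, whose mean was never above 3.57, and Fbxw25 in light (mean 3.13 against 1.65). Of all genes tested, 46.1% were called between these stages in control and 36.5% in light, with 32.3% and 29.0% called lower. The median change of the cluster was -3.78 in control and -2.71 in light, beside -0.72 and -0.56 over all genes tested.

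The 13 cluster genes with a mean of at least 10 kept this shape, though their levels differed. Fbxw14 had values of 72.6 to 261 in control 2-cell libraries (median 83.4) and 0 to 18.3 in control 4-cell libraries (median 6.41), and fell by 4.43 ± 0.71. Its near copy Fbxw28 ran from 38.6 to 145 (median 69.8) and from 0 to 10.2 (median 2.63), and fell by 4.60 ± 0.68. Neither gene overlapped between the stages. Fbxw19 ran from 66.9 to 215 (median 108) and from 2.56 to 23.9 (median 12.5), and fell by 3.24 ± 0.52. The pseudogene Fbxw23 ran from 25.8 to 146 (median 88.7) and from 0 to 12.3 (median 6.28), a fall by 3.89 ± 0.68, so the row that codes for no protein moved as its neighbours did. Fbxw22 had the largest fall of the cluster in control, by 4.85 ± 0.68, from 25.8 to 105 (median 45.2) to values of 0 to 8.80 (median 0.19).

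Fbxw15 fell by 4.76 ± 0.65, from a range of 37.9 to 82.3 to one of 0 to 8.88. Fbxw26, with 8.73 to 117 at the 2-cell stage, fell by 4.18 ± 0.73, and Fbxw21, with 12.5 to 124, by 3.94 ± 0.72. Fbxw15, Fbxw26 and Fbxw21 did not overlap between the stages in control, nor did Fbxw19, Fbxw23 and Fbxw22. By contrast Fbxw18 (18.2 to 134, then 0 to 21.3), Fbxw16 (13.1 to 141, then 0 to 29.3) and Fbxw20 (19.8 to 50.9, then 0 to 23.0) overlapped between the stages. They still fell, by 3.78 ± 0.81, 3.38 ± 0.81 and 2.89 ± 0.78. Fbxw27, with 18.3 to 75.9 in 2-cell and 0 to 8.80 in 4-cell libraries, fell by 3.48 ± 0.73 without overlap.

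**Figure D2:**
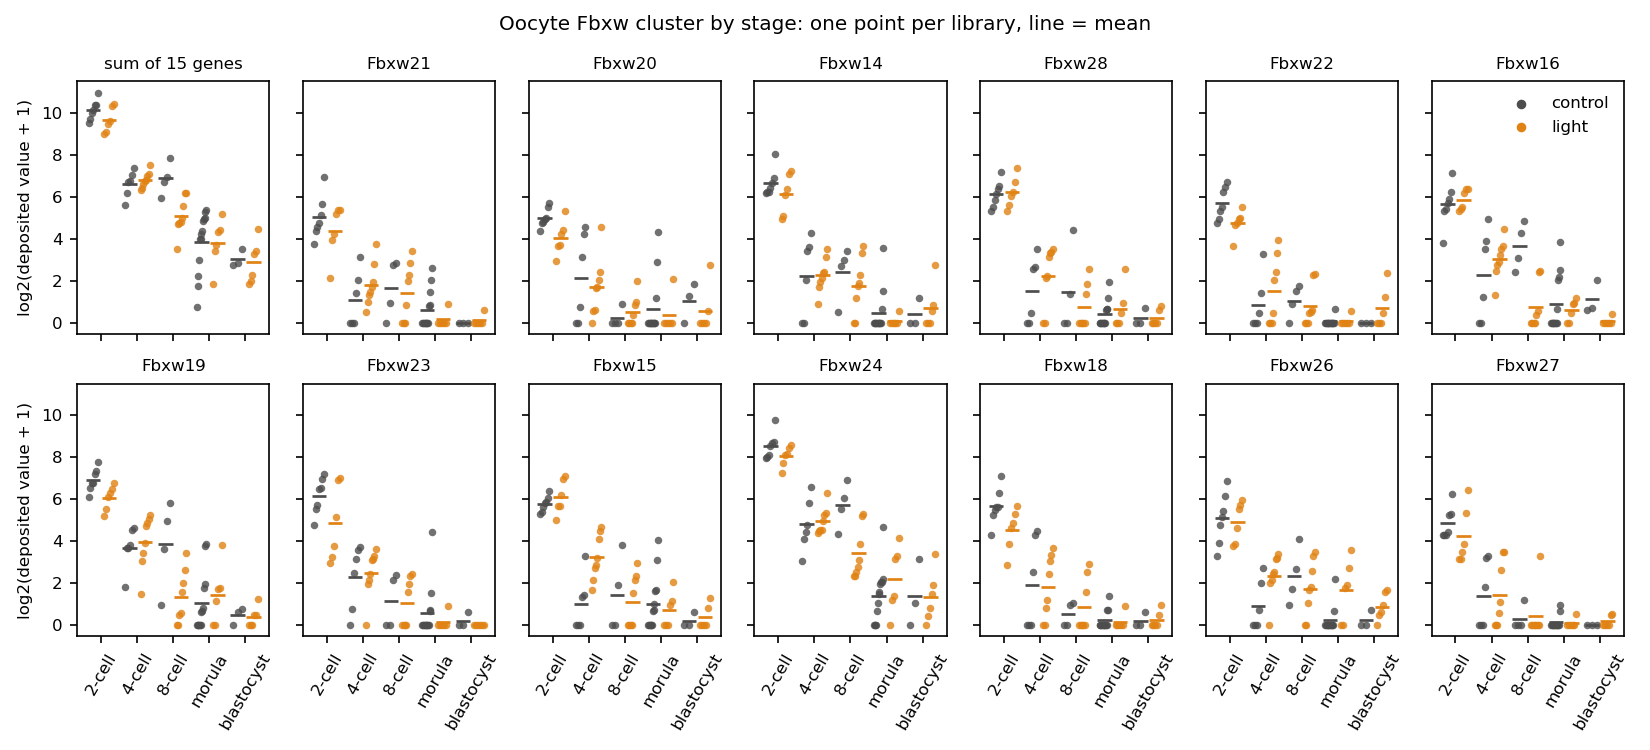
Each point is a library, with log2 of the deposited value plus 1 on the vertical axis, stages on the horizontal axis, control in grey, light in orange and lines at the mean; the first panel sums the 15 cluster genes and the others show the 13 with a mean of at least 10. In every panel the 2-cell libraries lie highest on average, and at the 8-cell stage the light libraries of Fbxw24, Fbxw16 and Fbxw19 lie below the control mean.

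At the 2-cell stage no cluster gene was called between light and control. The light sums of 512 to 1391 overlapped the control sums of 746 to 1986, and 12 of the 15 estimates were below 0, with a median of -0.64 beside 0.00025 over all genes tested. The widest of them, Fbxw25 at -1.35 ± 0.83 and Fbxw23 at -1.33 ± 0.61, had adjusted p of 0.315 and 0.16. Fbxw15, Fbxw16 and Fbxw28 were above 0, at 0.33 ± 0.43, 0.22 ± 0.47 and 0.09 ± 0.43. The oocyte marker list (Gdf9, Bmp15, the zona pellucida genes and others, 10 genes) was lower in light at this stage without overlap: its summed value was 2753 to 5888 in control and 897 to 2386 in light, all 10 genes had reads in both groups, and 4 of 10 were called lower. Its part in the cluster values was not tested.

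Cluster sums at the 8-cell stage were mostly lower in light than in control, and this difference of the sums was not tested. The 4 control sums were 61.1, 104, 124 and 233, and the 8 light sums ran from 10.5 over 28.8 to 70.7, so that only the lowest control library fell in the light range. Of the 11 cluster genes tested, Fbxw24 and Fbxw16 were called lower in light, beside 9.21% of all genes called and 3.30% called lower. Fbxw24 had values of 19.4, 45.3, 65.5 and 119 in control and of 3.99 to 38.8 (median 6.72) in light, a log2 difference of -2.29 ± 0.67 (adjusted p = 0.0315). Fbxw16 had 4.26, 7.40, 18.4 and 27.9 in control and 0 to 4.47 (median 0.133) in light, a difference of -2.93 ± 0.76 (adjusted p = 0.0161). Both genes overlapped between the groups in the lowest control libraries. The call of Fbxw24 was lost with no filter on low values and without any 1 of 6 of the 12 libraries, with an adjusted p of up to 0.13, and that of Fbxw16 without control library 3 (adjusted p = 0.051) and with edgeR. Fbxw16 overlaps an antisense gene, Gm42493, and without strand the reads of such a pair cannot be told apart. Fbxw19 (0.926, 11.2, 30.2 and 55.9 against 0 to 9.63) was not called, at -2.51 ± 0.91 (adjusted p = 0.0823). The oocyte marker list was again lower in light, with sums of 113 to 234 against 40.9 to 134 and none of its 10 genes called, and its part in these differences was not tested.

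The other 64 F-box genes did not all follow the cluster. In control, of the 63 F-box genes with a mean of at least 10 at some control stage, the highest mean was that of 2-cell libraries for 45, of 4-cell libraries for 10, of 8-cell libraries for 4, of the morula for 1 and of the blastocyst for 3. In light these numbers were 45, 6, 1, 3 and 2 of 57. The 13 cluster genes among them were all highest at the 2-cell stage. The same counts over all genes are not given, so these are no measure of what is particular to F-box genes. Of all genes tested from control 2-cell to 4-cell embryos, 32.3% were called lower and 13.8% higher.

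**Figure D3:**
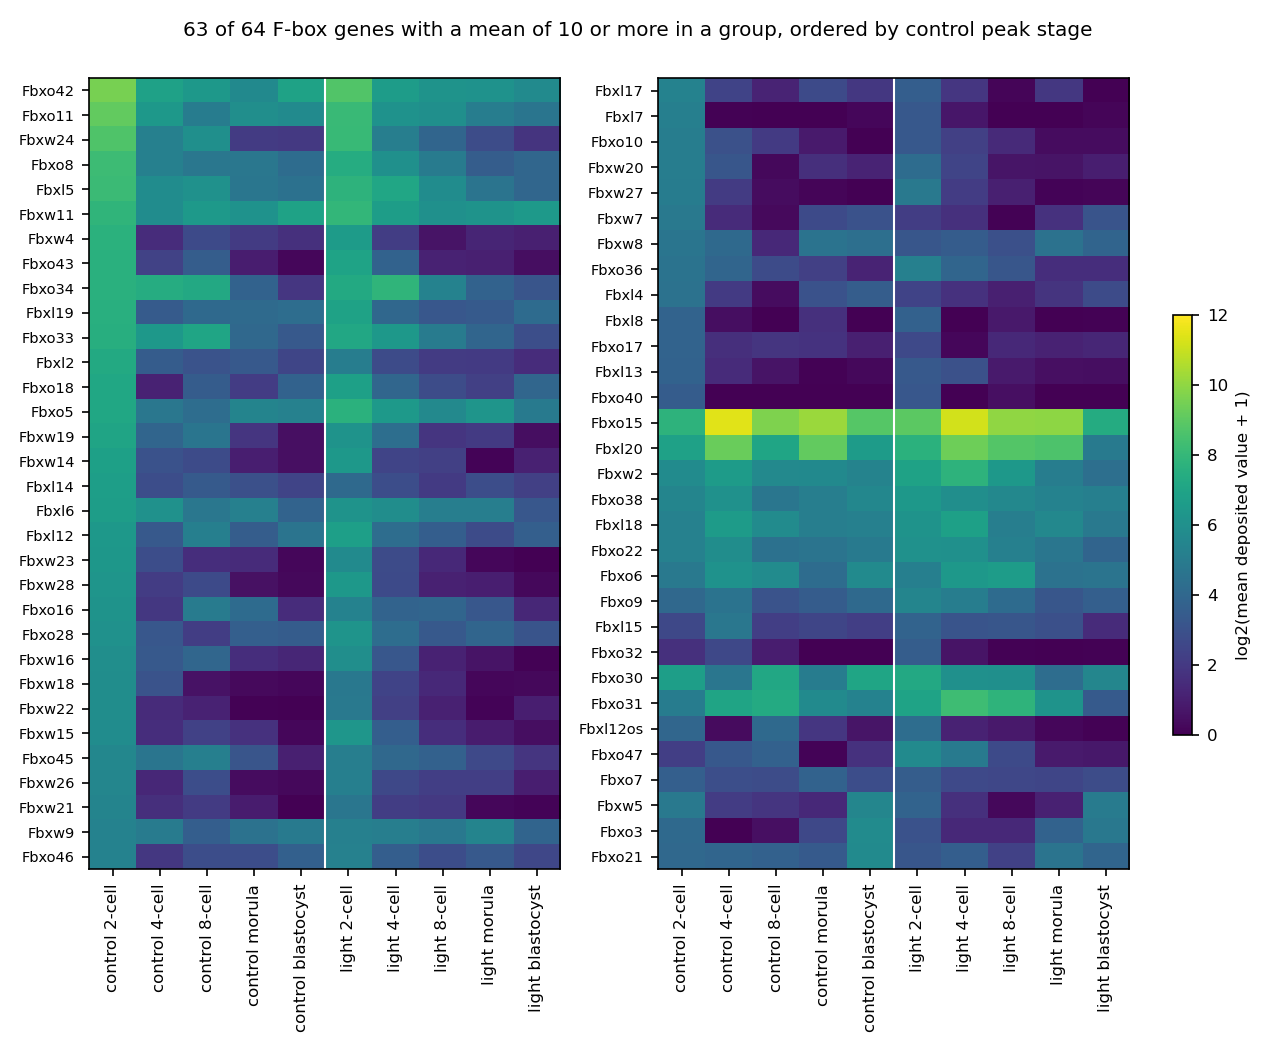
Each row is an F-box gene, 63 of the 64 with a mean of at least 10 in a group, ordered by the control stage with the highest mean, and colour gives log2 of the mean deposited value plus 1, control stages left of the white line and light stages right of it. Most rows are brightest at the 2-cell stage, while Fbxo15 and Fbxl20 are brightest at the 4-cell stage and Fbxw5 and Fbxo3 at the blastocyst.

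From control 2-cell to control 4-cell embryos 50 of the 74 F-box genes tested were called, 5 higher and 45 lower, and 30 of the 74 did not overlap. Over all genes tested 46.1% were called, 13.8% higher and 32.3% lower, and 20.4% did not overlap. The median change of the F-box genes was -2.59 beside -0.72 over all genes. Outside the cluster 5 of 59 rose and 31 fell. In light 40 of the 75 F-box genes tested were called, 4 higher and 36 lower, beside 36.5% of all genes, 7.43% higher and 29.0% lower, and 14 of 75 did not overlap, beside 13.0%.

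Fbxo18 (Fbh1), a DNA helicase with an F-box that takes part in homologous recombination, had the largest fall in control. Its values ran from 85.5 over 97.9 to 365 in control 2-cell libraries and from 0 over 0 to 6.57 at the 4-cell stage, a fall by 6.33 ± 0.63 (adjusted p = 6.88e-08). Fbxw4, whose locus is known from a limb malformation of the mouse, ran from 118 over 188 to 290 and then from 0 over 2.37 to 2.93, a fall by 6.26 ± 0.52 (adjusted p = 6.08e-09). Fbxo43 (Emi2), the inhibitor of the anaphase-promoting complex that holds the oocyte at metaphase of the second meiotic division, ran from 127 over 177 to 282 and then from 0 over 1.50 to 17.0, a fall by 5.91 ± 0.61 (adjusted p = 1.02e-07). The stages did not overlap for any of these genes. The same genes fell in light, Fbxo18 by 2.99 ± 0.47, Fbxw4 by 4.98 ± 0.69 and Fbxo43 by 3.41 ± 0.49.

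Fbxo15, known as a gene of pluripotent cells bound by Oct4 and Sox2, had the largest rise. In control its values went from 108 to 303 (median 253) in 2-cell to 1165 to 4908 (median 2484) in 4-cell libraries, a rise of 3.55 ± 0.37 (adjusted p = 1.42e-07). In light they went from 211 to 617 (median 594) to 846 to 3542 (median 2260), a rise of 2.16 ± 0.26 (adjusted p = 2e-07). Neither group overlapped between these stages, and from the 4-cell stage to the blastocyst Fbxo15 was the highest F-box gene per kb of exon in all groups. Fbxo31, which recognises cyclin D1, rose by 2.12 ± 0.62 in control, from 3.17 to 49.7 (median 44.1) to 55.8 to 250 (median 90.5). Fbxo6, which binds glycoproteins, was called higher in control by 2.25 ± 0.91 (values 0 to 73.9, then 8.52 to 139, adjusted p = 0.0484), with overlap between the stages, and the call was lost with edgeR and when any 1 of 9 of the 13 libraries was left out. Fbxl20 and Fbxl18 completed the 5 rises, by 1.73 ± 0.60 and 1.46 ± 0.54.

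After the 4-cell stage fewer F-box genes moved. From the control 4-cell to the 8-cell stage 2 of 63 were called, beside 6.31% of all genes, and which ones depended on scaling: the median change of all genes tested was -0.56 in this comparison and 0.04 after median ratio scaling. Fbxo15 was called lower as deposited (-1.58 ± 0.37, adjusted p = 0.0128; control 8-cell values 664, 759, 842 and 969), and after rescaling the estimate was -0.78 and not called. Fbxl12os was called higher under both, by 3.37 ± 0.88 as deposited, from 0 to 1.37 in 4-cell libraries to 4.63, 5.01, 19.7 and 34.6. It is annotated as an antisense RNA, and the strand counted is not known. Its reads therefore cannot be told apart from those of a gene on the other strand. With median ratio scaling both calls were rises, Fbxl12os and Fbxo30.

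From the control 8-cell stage to the morula 13 of 61 F-box genes were called, beside 14.3% of all genes, and 11 of them were lower, beside 7.49%. Fbxo34 went from 103, 136, 146 and 211 to a range of 0 to 65.1 (median 6.85), a fall by 4.74 ± 0.97. Fbxw24 fell by 4.36 ± 0.85, to 0 to 24.4 (median 1.76), and Fbxo33 by 3.64 ± 0.74, from 92.2, 137, 143 and 161 to 0.761 to 53.0 (median 8.95). Fbxo34 and Fbxo33 did not overlap between the stages. The rises were Fbxw8, the partner of the scaffold Cul7, from 0, 0, 0.926 and 5.42 to 0.588 to 59.4 (median 19.3) by 3.22 ± 0.83, and Fbxl20 by 2.00 ± 0.53, from 36.2, 102, 196 and 196 to 60.2 to 1566 (median 495). The count of 13 fell to 6 without control 8-cell library 2.

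From the control morula to the blastocyst 4 of 57 F-box genes were called, beside 11.9% of all genes. Fbxw5 went from 0 to 12.9 (median 0) to 27.9, 49.4 and 54.6, a rise of 4.79 ± 0.85 (adjusted p = 0.000356). Fbxo3 went from 0 to 19.7 (median 0.584) to 26.3, 33.1 and 105, a rise of 4.08 ± 1.10 (adjusted p = 0.015). Both were without overlap, and Fbxl20 fell by 2.39 ± 0.59, to 36.0, 123 and 131. The remaining call was Fbxo48, from 0 to 1.17 to 0, 2.78 and 8.99.

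In light the later changes were called as follows. From the 4-cell to the 8-cell stage 14 of 68 F-box genes were called, all lower, beside 10.6% of all genes and 9.94% lower, and after median ratio scaling 4 of 68 were called, while the count over all 15178 genes tested went from 1602 to 384. Fbxo34 fell by 2.45 ± 0.37 (81.5 to 552 in 4-cell, 16.9 to 70.3 in 8-cell libraries). From the 8-cell stage to the morula 9 of 60 were called, beside 11.8%, of which 6 were lower, beside 7.22%. From the morula to the blastocyst 6 of 55 were called, beside 20.7%, of which 5 were lower, beside 15.7%, and Fbxw5 was higher by 3.99 ± 0.73. With median ratio scaling this split became 4 higher and 4 lower. The falls as deposited included Fbxl20 by 3.37 ± 0.41 (153 to 947, then 17.0 to 39.9) and Fbxo15 by 2.54 ± 0.30 (579 to 1550, then 95.7 to 200).

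The comparison of light with control asked which F-box genes differed after the exposure. At the 2-cell stage 9 of 76 were called, beside 10.5% of all genes; 3 were higher, beside 5.53%, and 6 lower, beside 4.96%. Control and light shared no range for 4 of the 76, beside 4.15% of all genes. All 3 rises were Fbxo genes, and the falls were 4 Fbxl and 2 Fbxw genes. These shares were near those of all genes. The median difference of all genes tested was 0.00025.

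Fbxo47, a gene needed in meiosis, was nearly silent in control 2-cell libraries. Its values ran from 0 over 2.61 to 10.4 in control and from 15.5 over 56.4 to 75.7 in light, a difference of 3.91 ± 0.77 (adjusted p = 0.00105). All 6 light libraries lay above all 7 control libraries. Fbxo31 ran from 3.17 over 44.1 to 49.7 in control and from 25.0 over 131 to 264 in light, a difference of 2.00 ± 0.59 (adjusted p = 0.0252). Its groups overlapped in the lowest light library. Fbxo15 ran from 108 over 253 to 303 in control and from 211 over 594 to 617 in light, a difference of 1.23 ± 0.31 (adjusted p = 0.00971), and only light library 12 lay within the control range.

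Among the genes lower in light, Fbxl14, which targets Snail proteins, ran from 58.4 over 86.2 to 172 in control and from 0 over 14.9 to 35.0 in light, a difference of -3.11 ± 0.61 (adjusted p = 0.00104). Fbxl2, which is anchored in membranes by a lipid, ran from 93.1 over 136 to 279 and from 21.7 over 30.0 to 45.2, a difference of -2.19 ± 0.39 (adjusted p = 0.000399). Neither gene overlapped between the groups. Both lie over or beside other listed genes (Fbxl14 with Wnt5b, Fbxl2 with Ubp1), and reads shared with these cannot be told apart. Fbxl7 ran from 14.6 over 37.7 to 59.4 and from 0 over 0.619 to 40.0 (-3.34 ± 0.85, adjusted p = 0.00931). Fbxw7, which marks cyclin E, Myc and Notch for degradation, ran from 4.16 over 35.6 to 44.4 and from 0 over 1.67 to 9.64 (-2.75 ± 0.81, adjusted p = 0.0258). Fbxw4 ran from 118 over 188 to 290 and from 40.0 over 77.0 to 195 (-1.26 ± 0.38, adjusted p = 0.0268). These ranges overlapped. The remaining call was Fbxl22, with a mean of 8.93 in control and 0.873 in light; it was below the mean of 10 set for named genes and was named after its values were seen. The falls stood beside the lower sum of the oocyte markers given above, and the part of those markers was not tested.

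Leaving out 1 library at a time kept the calls of Fbxo47, Fbxl14, Fbxl2, Fbxo15 and Fbxl7 throughout, with adjusted p of at most 0.0289. The calls of Fbxw7, Fbxw4, Fbxl22 and Fbxo31 were lost without some libraries, light library 12 among them for each, with adjusted p of up to 0.0877. The count went from 9 to 5 without light library 12. Fbxl7 was not called by edgeR or DESeq2, Fbxl22 not by edgeR, and Fbxo31 not without the filter on low values. Of the 19 calls between light and control over all stages, 7 held under median ratio scaling, edgeR, DESeq2 and every library left out: Fbxo47, Fbxl14, Fbxl2 and Fbxo15 in 2-cell and Fbxl20, Fbxo33 and Fbxo34 in 8-cell libraries.

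**Figure D4:**
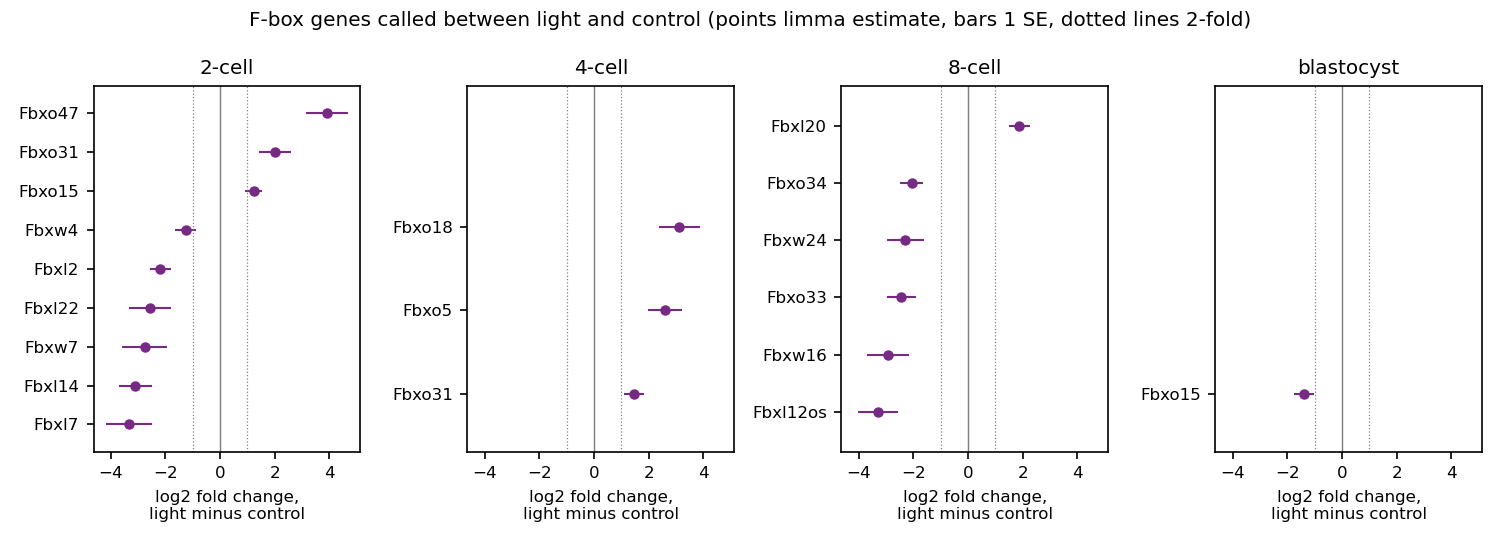
Points give the limma estimate of the log2 fold change, light minus control, for each F-box gene called at a stage, bars 1 SE and dotted lines a 2-fold change. The 2-cell stage holds 3 rises and 6 falls, the 4-cell stage 3 rises, the 8-cell stage 1 rise and 5 falls and the blastocyst 1 fall; no F-box gene was called at the morula.

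At the 4-cell stage 3 of 65 F-box genes were called, all higher in light, beside 1.45% of all genes and 1.12% higher. Fbxo31 ran from 55.8 over 90.5 to 250 in control and from 161 over 297 to 436 in light (1.46 ± 0.35, adjusted p = 0.0358). Fbxo5 (Emi1), an inhibitor of the anaphase-promoting complex in the mitotic cycle, ran from 1.70 over 16.3 to 81.3 and from 42.6 over 87.4 to 145 (2.60 ± 0.64, adjusted p = 0.0375). Fbxo18 ran from 0 over 0 to 6.57 and from 3.04 over 14.0 to 29.4 (3.11 ± 0.75, adjusted p = 0.0354). Each overlapped between the groups, and edgeR called none of them. Each also lost its call when 1 library was left out, for 10 of the 14 libraries (not the same 10 for each gene), with adjusted p of up to 0.0778.

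Control 4-cell library 3 had the lowest ratio of Gm42418 to CT010467.1 in its group. This ratio was 1.61, within the light range of 1.43 to 1.63. Control libraries 4, 5 and 6 were close to it, at 1.89, 1.98 and 1.80, while libraries 1 and 2 had 4.55 and 4.35. Of the 14 libraries left out 1 at a time, none gave a higher count of F-box calls than library 3. Without control library 3, 5 of 65 F-box genes were called, all higher in light: Fbxo18 by 3.15, Fbxo5 by 2.92, Fbxo30 by 2.24, Fbxo31 by 1.71 and Fbxw2 by 1.36. Over all genes the count went from 218 to 771. Fbxo30 had a value of 73.7 in that library, against a mean of 15.5 in the other control and of 63.2 in the light libraries.

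The fall of Fbxo18 from the 2-cell to the 4-cell stage differed between the groups. Its 2-cell values were alike in range, 85.5 to 365 in control and 54.4 to 168 in light, and at the 4-cell stage the light values of 3.04 to 29.4 stood above 5 of the 6 control values. The interaction of light and stage was 3.34 ± 0.77 (limma, adjusted p = 0.0158), and it was called under the other scaling, with edgeR and DESeq2 and without each library. Fbxl7 had an interaction of 3.66 ± 1.00 (adjusted p = 0.036), which edgeR and DESeq2 did not call and which was lost without any 1 of 10 of the 27 libraries. Its highest 4-cell value was 4.34 in light and 0.38 in control, and its groups differed at the 2-cell stage, as given above. These were 2 of 77 F-box genes, both above 0, beside 3.07% of all genes called and 1.63% above 0. No cluster gene was called for this interaction. After median ratio scaling 7 of 77 F-box genes were called, while the count over all 20395 genes tested went from 627 to 903.

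**Figure D5:**
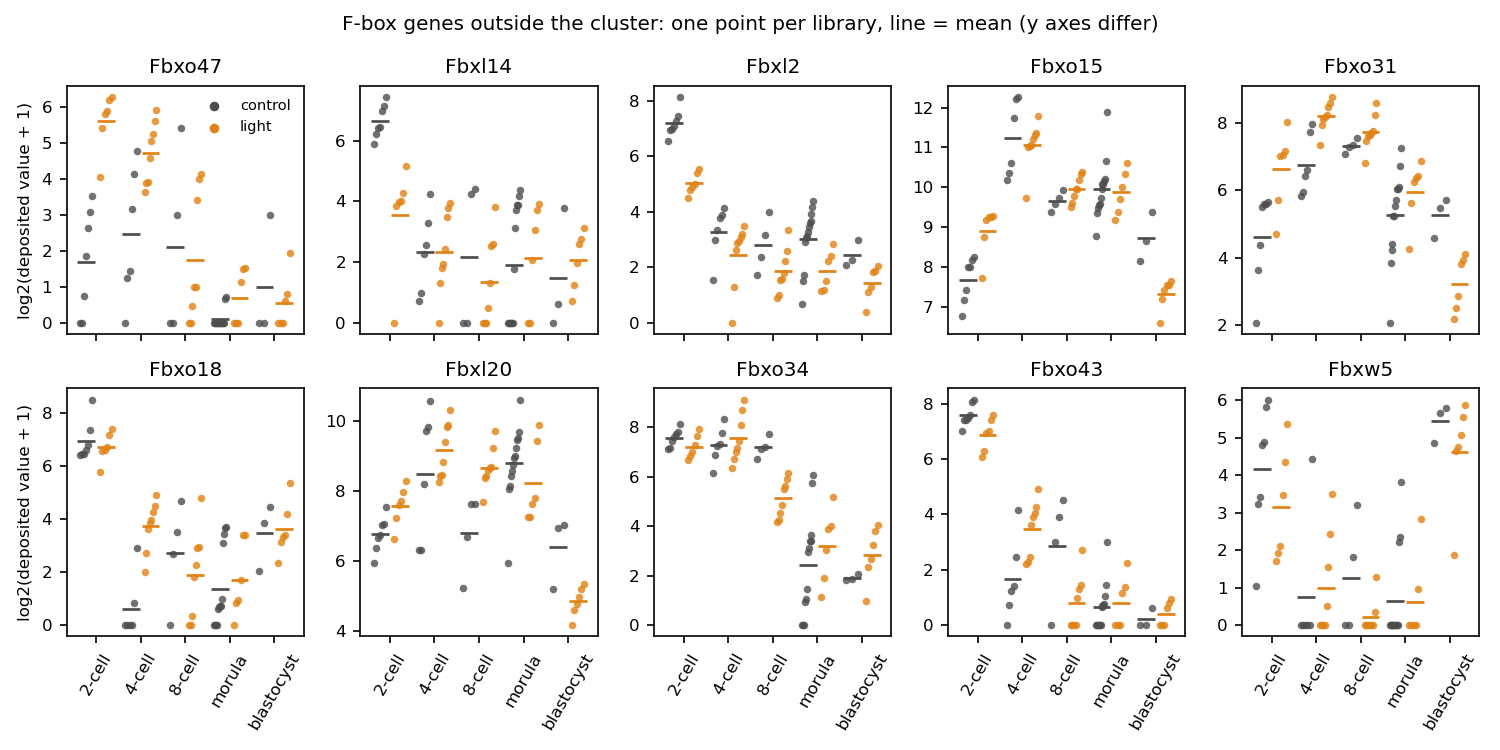
Each point is a library, with log2 of the deposited value plus 1 on the vertical axes, which differ between panels, stages on the horizontal axis, control in grey, light in orange and lines at the mean. The 2-cell libraries of Fbxo47, Fbxl14 and Fbxl2 separate by group, Fbxo18 differs at the 4-cell stage, and the 8-cell libraries of Fbxl20 and Fbxo34 separate by group.

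At the 8-cell stage 6 of 59 F-box genes were called, beside 9.21% of all genes; 1 was higher, beside 5.91%, and 5 lower, beside 3.30%. For 2 of the 59 the groups did not overlap, beside 5.61% of all genes. Fbxl20 had 36.2, 102, 196 and 196 in control and 203 to 834 (median 395) in light, a difference of 1.88 ± 0.38 (adjusted p = 0.00255). Fbxo34 had 103, 136, 146 and 211 in control and 16.9 to 70.3 (median 35.8) in light, a difference of -2.06 ± 0.42 (adjusted p = 0.00293). Every light library lay above every control library for Fbxl20 and below for Fbxo34. Fbxo33 had 92.2, 137, 143 and 161 in control and 7.63 to 96.4 (median 24.0) in light (-2.44 ± 0.52, adjusted p = 0.004), with 1 light library in the control range. Fbxl12os had 4.63, 5.01, 19.7 and 34.6 in control, and in light 7 of 8 libraries were at 0 and 1 at 6.19 (-3.30 ± 0.74, adjusted p = 0.00571). The last was not called by edgeR or DESeq2, and the limit of strand given above for this antisense RNA holds here too. Fbxo34 and Fbxo33 had been high at the 4-cell stage in both groups (control 69.2 to 320 and 31.2 to 235), and in control they were called lower between the 8-cell stage and the morula but not between earlier neighbouring stages.

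At the morula 0 of 58 F-box genes were called by limma, beside 1.18% of all genes, and edgeR and DESeq2 called none either, while 3 had an unadjusted p under 0.05. At the blastocyst 1 of 50 was called, Fbxo15, lower in light, beside 5.34% of all genes and 4.98% lower. Fbxo15 had 284, 398 and 666 in control and 95.7 to 200 (median 178) in light, without overlap (-1.40 ± 0.36, adjusted p = 0.0279). The median difference of all genes tested was -0.64 here and -0.10 after median ratio scaling, under which Fbxo15 had -0.73 and was not called. It was not called by edgeR or DESeq2 either (DESeq2 called 1 other F-box gene, Fbxo44, higher in light and named after its values were seen, with means of 0 in control and 4.36 in light), nor without control library 1, control library 2 or light library 26, with adjusted p of up to 0.213. Markers of the inner cell mass (8 genes) had summed values of 90.5, 914 and 1464 in control and 18.9 to 72.7 in light. Those of the trophectoderm (10 genes) had 477 to 6735 and 2880 to 7094. The part of these markers in the difference was not tested, nor was that of embryo sex, for which the Y-linked reads are given above.

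Well known F-box genes that were not called between light and control at the 2-cell stage are given by role. Among regulators of the cell cycle, Fbxo5 had 140 ± 101 (SD, n = 7) in control and 204 ± 145 (n = 6) in light, Fbxo43 197 ± 55.4 and 125 ± 48.4, and Fbxw11, a β-TrCP that reads phosphorylated degrons, 230 ± 81.1 and 242 ± 90.5. The iron sensor Fbxl5 had 290 ± 95.6 and 214 ± 56.3, and the mitochondrial Fbxl4 21.9 ± 21.0 and 4.25 ± 3.16. These groups overlapped.

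Fbxo11, which acts on Bcl6, came next after Fbxw24 in level per kb of exon in control 2-cell embryos (126 per kb, Fbxo42 at 125 per kb), with deposited values of 555 ± 168 in control and 284 ± 41.4 in light. Its groups did not overlap and its adjusted p was 0.0168, but its difference of -0.93 ± 0.26 was under the 2-fold threshold. Fbxo42 had control means of 739 (2-cell) and 117 (4-cell), and fell by 2.73 ± 0.33 between them. The muscle gene Fbxo32 and the glycoprotein binder Fbxo2 stayed at a mean of at most 10.6 and 5.96 in all groups. Fbxo22, Fbxo30, Fbxo38, Fbxo45, Fbxl19, Fbxo7 and Fbxw8 had adjusted p of 0.165 to 0.854 in this comparison.

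Of 36 genes of the SCF core and its regulation, 5 of 36 were called between light and control at the 2-cell stage (4 higher), 1 of 36 in 4-cell libraries (higher), 7 of 34 in 8-cell libraries (all higher), and 0 of 36 in morula or blastocyst libraries. Over all genes 10.5%, 1.45%, 9.21%, 1.18% and 5.34% were called in these comparisons, so the 2-cell count was near that of all genes. Subunits of the COP9 signalosome, which takes Nedd8 off cullins, made up 3 of the 2-cell and 6 of the 8-cell rises, of 9 subunits tested; they were grouped after their values were seen. In 2-cell libraries Cops6 had 16.0 ± 11.8 in control and 77.8 ± 26.1 in light (2.50 ± 0.58, adjusted p = 0.00478), and in 8-cell libraries 30.1 ± 22.6 and 88.0 ± 27.4 (1.83 ± 0.45, adjusted p = 0.0115). After median ratio scaling the 8-cell count was 4 of 34. The one fall was Arih1, a ligase that works with neddylated Cul1, from 740 ± 193 to 270 ± 77.9 at the 2-cell stage (-1.46 ± 0.26, adjusted p = 0.00045).

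Of 7 F-box genes with other kinds of symbols, 6 of which were tested at these stages, Btrc was called higher in light at the 2-cell stage (23.9 ± 11.4 against 80.2 ± 39.3; 1.77 ± 0.54, adjusted p = 0.0291) and Kdm2b in 8-cell libraries (34.6 ± 26.4 against 104 ± 36.4; 1.98 ± 0.49, adjusted p = 0.012). Among 27 transcripts of known substrates, 3 were higher and 1 lower in light at the 2-cell stage, beside 5.53% and 4.96% of all genes. The difference in share was not tested. Ccne1, whose protein is a substrate of Fbxw7, had 336 ± 184 in control and 984 ± 461 in light at that stage (1.62 ± 0.33, adjusted p = 0.00177), and Ccne2 146 ± 89.9 and 48.9 ± 24.5 (-1.41 ± 0.47, adjusted p = 0.0493). Ccnb1 and Cdc20 were the other 2 rises, by 1.58 ± 0.29 and 1.52 ± 0.31. These are levels of RNA and carry no measure of protein.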

How the data were processed

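Per the labels and the study's methods, SMART-seq2 libraries of single cells were mapped and counted by the authors; the processing notes name HISAT2, HTSeq 0.9.1 and mm9, and the counting strand is not given in the sources used here. The deposited values are a normalised signal: reads divided by a size factor per library, not by length. Whole reads were recovered, within 0.01, for at least 99.97% of values of each library. Levels per kb used exon lengths of GENCODE M21 (GRCm38), and no coordinate was converted between builds.

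Log2 of the value plus 1 was tested with limma 3.58.1 (R 4.3.3, trend) on genes above 1 in 3 or more of the libraries compared, with Benjamini-Hochberg adjustment over all genes. A gene was called where the adjusted p was under 0.05 and the change 2-fold or more. Called F-box genes with a mean of at least 10 in a compared group were named first. Alternatives were a pseudocount of 0.1, no filter, median ratio scaling, edgeR 4.0.16 and DESeq2 1.42.0 on recovered reads, a replicate block and leaving out each library. The limma fits were tried on simulated counts with a 4-fold change in 200 genes, all with a mean of at least 10. Genes of low value were not among those changed. The genes and lists were chosen with earlier results of these data known. Libraries of a group carry embryo numbers but no litter or culture day. The values of 1 F-box gene are not reported here; it stays in the counts.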

Additional observations from a re-analysis of the deposited data

Results flagged for a closer look

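Of 43 groups of 4 to 10 libraries tested for a library far from the rest, 4 held one, where chance gives about 1 in 20. That rate holds for values with a normal spread. Groups with many values of 0, such as that of Fbxl12os, do not meet this, so the count cannot be set against chance. Light 8-cell library 8 had 6.19 for Fbxl12os, with the other 7 libraries at 0. Light 2-cell library 16 had 0 for Fbxl14, with the others at 13.3 to 35.0. That library had the fewest reads of all, 836011, and 1 read in it gave a value of 3.89. Light 2-cell library 12 had 211 for Fbxo15, with the others at 431 to 617. Control 4-cell library 6 had 6.57 for Fbxo18, with the others at 0 to 0.76. The change from the 2-cell to the 4-cell stage differed between light and control, by the limma interaction, for Fbxl7 (3.66 on the log2 scale) and Fbxo18 (3.34).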

How the results depend on the processing

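Counts of called F-box genes are given as deposited, then under the alternatives that moved them by over 1.5 times. Between light and control, 9 at the 2-cell stage became 0 with the replicate block; 3 at the 4-cell stage became 0 without the filter, 0 with edgeR, 5 with DESeq2 and 0 with the block; 1 at the blastocyst became 0 without the filter, with median ratio scaling and with edgeR, and DESeq2 called 1 other gene, in the opposite direction. Between control stages, 2 from the 4-cell to the 8-cell stage became 1 without the filter, 1 with edgeR and 4 with DESeq2; 13 from the 8-cell stage to the morula became 6 with edgeR and 7 with DESeq2; 4 from the morula to the blastocyst became 2 with DESeq2. Between light stages, 14 from the 4-cell to the 8-cell stage became 4 with median ratio scaling, 1 with edgeR and 4 with DESeq2; 6 from the morula to the blastocyst became 10 with DESeq2. The interaction count of 2 became 1 with a pseudocount of 0.1, 7 with median ratio scaling, 4 with edgeR and 10 with DESeq2. Counts over all genes tested moved as well. Between light and control the 2-cell count went from 1944 to 0 with the block. The 4-cell count went from 218 to 53 without the filter, 190 with edgeR, 742 with DESeq2 and 0 with the block. For the interaction 627 became 407 with a pseudocount of 0.1 and 903 with median ratio scaling. It became 1094 with edgeR and 1628 with DESeq2. The block rests on few shared library numbers, so its counts of 0 were nearly fixed by the design. The cause of the other shifts was not tested. Leaving out 1 library at a time gave 5 to 12, 0 to 5, 5 to 8, 0 to 0 and 0 to 2 calls between light and control in stage order; 46 to 50, 1 to 3, 6 to 13 and 2 to 5 between control stages; 36 to 43, 12 to 16, 6 to 9 and 6 to 10 between light stages; and 1 to 5 for the interaction. Over all genes, the light against control count of 680 at the blastocyst became 264 without the filter and 272 with median ratio scaling. It became 151 with edgeR and 450 with DESeq2. In control, 847 from the 4-cell to the 8-cell stage became 421 without the filter, 187 with edgeR and 636 with DESeq2. From the 8-cell stage to the morula 2145 became 1705 with edgeR and 2240 with DESeq2. In light, 1602 from the 4-cell to the 8-cell stage became 384 with median ratio scaling, 247 with edgeR and 535 with DESeq2.

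Same-numbered libraries did not deviate together (correlations -0.0873 to 0.0695). With the replicate block 0 F-box genes were called at the 2-cell stage, the 4-cell stage and the morula. Over all genes tested the block called 0 of 18532, 0 of 15010 and 0 of 15217 there. These counts are therefore not particular to F-box genes. Control and light share 0 numbers at the 8-cell stage and the blastocyst, so no block could be fitted there. Between stages none was fitted, although some neighbouring stages share 2 to 5 numbers: an embryo is used up at 1 stage, and no label ties the numbers of different stages. Libraries of 318177 to 2867034 reads outside CT010467.1 and Gm42418 limit what can be seen in genes of low value.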

Other observations

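Of the transcripts of known substrates, 3 of 24 were called between light and control at the 8-cell stage, beside 9.21% of all genes. At the morula 1 of 26 was called, beside 1.18%, and at the blastocyst 1 of 25, beside 5.34%, so most were not called. At the 4-cell stage, where 1.45% of all genes were called, Ccne1 and Myc were called higher in light. Ccne1 had means of 209 in control and 477 in light (1.29 ± 0.33, limma, adjusted p = 0.042). Myc had means of 25.6 and 107 (3.29 ± 0.85, adjusted p = 0.0468). After median ratio scaling the adjusted p of Myc was 0.0527. At the 8-cell stage Snai1, whose protein is a substrate of Fbxl14, had 50.3 ± 28.9 (SD, n = 4) in control and 3.07 ± 4.96 (n = 8) in light, a difference of -3.97 ± 0.83 (limma, adjusted p = 0.00349). Rrm2, a subunit of ribonucleotide reductase, had 86.7 ± 60.2 and 458 ± 126 at that stage (2.64 ± 0.35). At the morula Rrm2 had 404 ± 157 in control and 989 ± 292 in light (1.36 ± 0.28).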
